A study of Rattus norvegicus with 12 samples.

Results

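Described here are 7 miRNAs from the later portion of the miR-379/miR-410 cluster, miR-487b, miR-544, miR-382, miR-134, miR-409-3p, miR-369-5p and miR-410, of the 375 miRNA assays on a rodent TaqMan card. The 7 were chosen by name, and each matched 1 assay (7 of 7). The rule itself uses no measured value, although it was set with earlier results of these data known. The comparison addresses which miRNAs differ in level in stellate cells of the medial entorhinal cortex (MEC), the neurons of layer II (LII) that send axons to the dentate gyrus and are thought to include grid cells. The samples were 5 of stellate cells, 5 of non-stellate cells and 2 of dissected MEC tissue. Long Evans rat pups received DiO, a fluorescent dye that axons carry back to the cell body, by injection into the dentate gyrus on both sides on postnatal day 2. On day 4 or 5 the MEC was dissociated and sorted by fluorescence. Stellate samples are the DiO positive cells, and non-stellate samples are all the unlabelled cells, neurons and other types together, so that stellate cells missed by the dye fall there. The tissue came from Long Evans rats of day 23 that were not sorted, and its RNA was purified with another kit.

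The miR-379/miR-410 cluster lies in an imprinted region of the genome from which long noncoding RNAs and many small RNAs are expressed from the maternal chromosome. Its miRNAs are abundant in brain, are cut from shared precursor transcripts, and can be induced by neuronal activity. MiR-134 is the best studied member: it is found in dendrites, where it represses the kinase Limk1 and limits the size of dendritic spines.

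The mature sequences are those each assay is taken to read, with the seed, the stretch that pairs with targets (bases 2 to 8), in capitals. They are from RefSeq (rat, build GRCr8), all on the plus strand of chromosome 6, and are listed 5′ to 3′ in genome order.
miR-487b (chr6:134562939-134562960): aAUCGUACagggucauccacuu
miR-544 (chr6:134564981-134565001): aUUCUGCAuuuuuagcaagcu
miR-382 (chr6:134569956-134569977): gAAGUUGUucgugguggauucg
miR-134 (chr6:134570320-134570341): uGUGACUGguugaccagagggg
miR-409-3p (chr6:134579231-134579250): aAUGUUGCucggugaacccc
miR-369-5p (chr6:134579472-134579493): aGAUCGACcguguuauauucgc
miR-410 (chr6:134579808-134579828): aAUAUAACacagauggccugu
The assays carry mouse names, and for names without an arm the arm was taken from older naming of these miRNAs. The 7 seeds are all different. Of 694 mature rat miRNAs in the table, only rno-miR-344b-1-3p, which lies outside the 7, shares a seed with any of them, that of miR-410.

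The 7 genes span 16949 bases within a long noncoding RNA locus, LOC120103623 (chr6:134559128-134586223, build GRCr8). Mir382 and Mir134 lie 289 bases apart, Mir409 and Mir369 197 bases apart, and Mir369 and Mir410 225 bases apart, whereas 8799 bases separate Mir134 from Mir409. On the opposite strand 3 other miRNA genes overlap hairpins of this set, at Mir382, Mir409 and Mir369. Hairpins of 6 of the 7 were in the table, and 3 are shown because they mark the range of likeness, with the motif UUCGCUU in capitals.
Mir382 (chr6:134569944-134570023): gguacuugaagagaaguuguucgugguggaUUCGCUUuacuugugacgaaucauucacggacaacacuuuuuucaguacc
Mir134 (chr6:134570313-134570385): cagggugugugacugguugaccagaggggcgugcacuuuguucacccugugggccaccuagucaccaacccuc
Mir410 (chr6:134579763-134579838): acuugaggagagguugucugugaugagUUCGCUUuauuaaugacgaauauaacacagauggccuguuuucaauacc
Mir134 was the least like the rest: its hairpin was 40.7% to 46.9% identical to the other 5, which were 55.7% to 70.0% identical to each other. The motif UUCGCUU, read on the transcribed strand of each hairpin, occurred in Mir487b, Mir382, Mir369 and Mir410, that is in 4 of these 6 hairpins, in 10 of 31 hairpins of the cluster (32.3%) and in 11 of 419 rat hairpins (2.63%). It was absent from Mir134 and Mir409. Another motif, GACGAAU, was also counted, in 3 of these 6 hairpins, 4 of 31 of the cluster (12.9%) and 4 of 419 (0.955%). No rule for choosing motifs was set beforehand, so these shares carry no test. The match describes the letters only.

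Levels are given as Ct, the PCR cycle at which a well's signal crossed its threshold. Ct is on a log2 scale and falls as abundance rises, so a log2 difference here is minus a difference in Ct, and a well without a signal was written as 40 (undetermined). Wells were single for each miRNA. Because no molecules are counted, the number of determined assays and the reference RNAs stand in for depth. Of the 375 assays, 234 to 260 were determined in stellate samples, 203 to 241 in non-stellate samples and 292 and 302 in tissue. Over the 176 assays with a signal in every sample, median Ct was 27.96 to 29.51 in stellate samples, 28.88 to 30.94 in non-stellate samples and 23.69 and 23.70 in tissue. A description field calls non-stellate 3 and 5 labelled, against their titles and fluorescence, and both read miR-155, a miRNA of immune cells, at a Ct near 11 (lowest 11.3). They were kept as non-stellate, and results are also given without both. All 5 neuronal markers (miR-9, miR-124, miR-128a, miR-129-3p and miR-138) were determined in every sample. Of the oligodendrocyte markers, miR-219 was determined in 0 of 5 stellate and 2 of 5 non-stellate samples, and miR-338-3p in 3 of 5 and 0 of 5. The vascular markers, summed over 4 miRNAs, were 1.25 to 4.42 log2 units above the median assay in stellate samples and 1.17 to 2.74 in non-stellate samples. Of the 6 blood and microglia markers, 4 were determined in every sorted sample, and their sum was 1.76 to 5.11 in stellate and 1.83 to 19.2 in non-stellate samples, the highest with the early miR-155 wells. Among them miR-150, a miRNA of lymphocytes, had a mean median-centred Ct of -3.12 in stellate and -1.14 in non-stellate samples. On this scale miR-142-3p (4.05 and 2.88) and miR-223 (2.45 and 2.28) did not share this direction. MiR-155 was at 4.27 and -4.33, but the last value rests on the early wells. Its median raw Ct was 32.4 in stellate and 33.6 in non-stellate samples, so its direction is not settled. MiR-142-5p and miR-451 had no signal in sorted samples. The part of these markers in the values below was not tested, and in sorted pools or tissue, fewer cells of a type and less RNA per cell cannot be told apart.

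**Figure D1:**
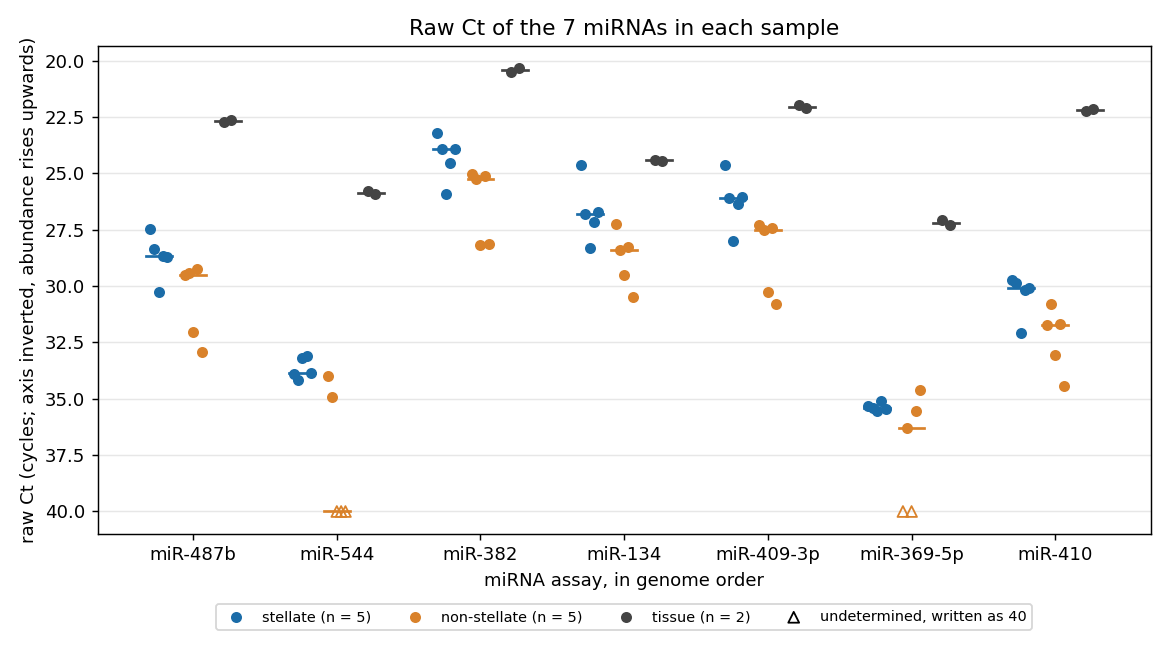
Raw Ct of the 7 miRNAs in genome order (x) in every sample (y, cycles, inverted so that abundance rises upwards), with short lines for group medians and open triangles for undetermined wells written as 40. Tissue stands above all sorted samples for every miRNA, by the narrowest margin for miR-134, and the 5 undetermined wells are all in non-stellate samples. The median Ct of the assays with a signal in every sample was also earlier in tissue than in any sorted sample.

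All 7 miRNAs were determined in each stellate sample, whereas non-stellate samples 1 to 5 had 6, 7, 5, 6 and 6 determined, and both tissue samples had 7. MiR-382 had the lowest Ct in every sample, and miR-369-5p the highest among determined wells in the stellate and tissue samples. By median Ct in the sorted cells the order was miR-382, miR-409-3p, miR-134, miR-487b, miR-410, miR-544 and miR-369-5p. The order sets wells of different assays side by side, and Ct also depends on how well an assay amplifies, so it ranks wells and not molecules.

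MiR-134, the regulator of dendritic spines, was read at Ct 24.6, 26.8, 28.3, 27.2 and 26.7 in stellate samples 1 to 5. It was at 27.3, 28.4, 29.5, 28.3 and 30.5 in non-stellate samples 1 to 5. The groups overlapped, because stellate 3 was later than the earliest non-stellate sample. Within samples of the same number, which the design describes as labelled and unlabelled cells of 5 biological replicates, stellate cells were higher in 5 of 5 pairs. The difference was 1.11 to 3.73 cycles of raw Ct and 0.004 to 2.27 after U6 scaling. In the limma fit on Ct minus the mean of the U6 wells, a small nuclear RNA used as reference, the log2 difference was 1.23 (SE 0.61, 95% interval -0.10 to 2.57, adjusted p = 0.587).

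No miRNA of the 7 passed in this comparison (0 of 7 at a Benjamini-Hochberg adjusted p under 0.05), as for the card, where limma called 0 of 222 tested assays (0.0%) and 16 were at an unadjusted p under 0.05. Before adjustment 2 of the 7 were under 0.05. They were miR-544 and miR-409-3p, with limma p-values of 0.0155 and 0.0394. All 7 differences were above 0, with a median of 1.20 log2 units, against 163 of 222 above 0 and a median of 0.46 over all tested assays. Without non-stellate 3 and 5 the median was 0.74 for the 7, against 0.16 for the card, where 88 of 222 lay below 0, and 0 of the 7 had an unadjusted limma p under 0.05. Without replicate 3 the median was 0.89 for the 7, with 6 above 0, against 128 of 222 and 0.12. Scaled instead to the median of the 176 shared assays (median centring), all 7 were again above 0 with a median of 0.81, against 117 of 222 and 0.07, and again 0 of 222 passed (0.0%), with 28 at an unadjusted p under 0.05. Samples of the same number were treated as independent here, and p-values measure the spread between the 5 samples of a group.

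MiR-409-3p, which has been linked to the identity of cortical projection neurons, had the smallest p-value among the 5 miRNAs determined in every well. Its Ct was 24.7, 26.1, 28.0, 26.4 and 26.1 in stellate samples 1 to 5 and 27.3, 27.5, 30.3, 27.4 and 30.8 in non-stellate samples 1 to 5. Stellate cells were ahead in 5 of 5 pairs, by 1.09 to 4.72 cycles of raw Ct, although stellate 3 lay within the non-stellate range. The median Ct of the shared assays was itself earlier in the stellate sample of each pair. By pair the miR-409-3p difference was 0.48 to 3.36 after U6 scaling and 0.40 to 1.92 after median centring. The limma log2 difference with U6 scaling was 1.60 (SE 0.69, 95% interval 0.09 to 3.11, adjusted p = 0.587). After median centring it was 1.21, and it was 0.74 without non-stellate 3 and 5.

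MiR-410, at the far end of the cluster, had a Ct of 29.7, 29.9, 32.1, 30.2 and 30.1 in stellate samples 1 to 5. In non-stellate samples 1 to 5 it was 31.7, 30.8, 33.1, 31.7 and 34.5. Stellate 3 was again the late stellate sample and non-stellate 3 and 5 the latest of their group, as they were by the median Ct of the shared assays. All 5 pairs favoured stellate cells, by 0.935 to 4.35 cycles of raw Ct. By pair the difference was 0.62 to 2.09 after U6 scaling and 0.0035 to 1.37 after median centring. The limma log2 difference was 1.13 (SE 0.57, adjusted p = 0.587), and 0.59 without non-stellate 3 and 5.

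MiR-382 and miR-487b also had stellate 3 as the latest stellate sample. MiR-382, the earliest of the 7, was at Ct 23.2, 23.9, 25.9, 24.6 and 23.9 in stellate samples 1 to 5 and at 25.0, 25.2, 28.2, 25.1 and 28.1 in non-stellate samples 1 to 5. MiR-487b was at 27.5, 28.4, 30.3, 28.7 and 28.7 in stellate samples 1 to 5 and at 29.5, 29.4, 32.0, 29.2 and 32.9 in non-stellate samples 1 to 5. In both, non-stellate 3 and 5 came up later than the other non-stellate samples, which lay within the stellate range, and 4 of 5 pairs were higher in stellate cells after U6 scaling. The log2 difference was 1.20 (SE 0.69) for miR-382 and 1.11 (SE 0.68) for miR-487b, both with a limma adjusted p of 0.629. Without non-stellate 3 and 5 it was 0.39 and 0.27.

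MiR-544 and miR-369-5p were near the limit of detection in sorted cells. MiR-544 was at Ct 33.9, 34.2, 33.2, 33.1 and 33.9 in stellate samples 1 to 5, at 34.0 and 34.9 in non-stellate 1 and 2, and undetermined in non-stellate 3, 4 and 5. Its log2 difference of 3.32 (SE 1.17, limma adjusted p = 0.587) took those wells at 40. In the 2 pairs that had a signal in both wells the mean U6-scaled difference was -0.0018, and with undetermined wells left out the fit gave 0.57. MiR-369-5p was at 35.3, 35.4, 35.6, 35.1 and 35.5 in stellate samples 1 to 5, at 36.3, 35.6 and 34.6 in non-stellate 2, 4 and 5, and undetermined in non-stellate 1 and 3. Its log2 difference was 1.10 (SE 1.33, limma adjusted p = 0.783), and it turned to -1.04 with undetermined wells left out and to -0.89 with Ct capped at 35. The direction for miR-369-5p thus rested on wells without a signal.

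**Figure D2:**
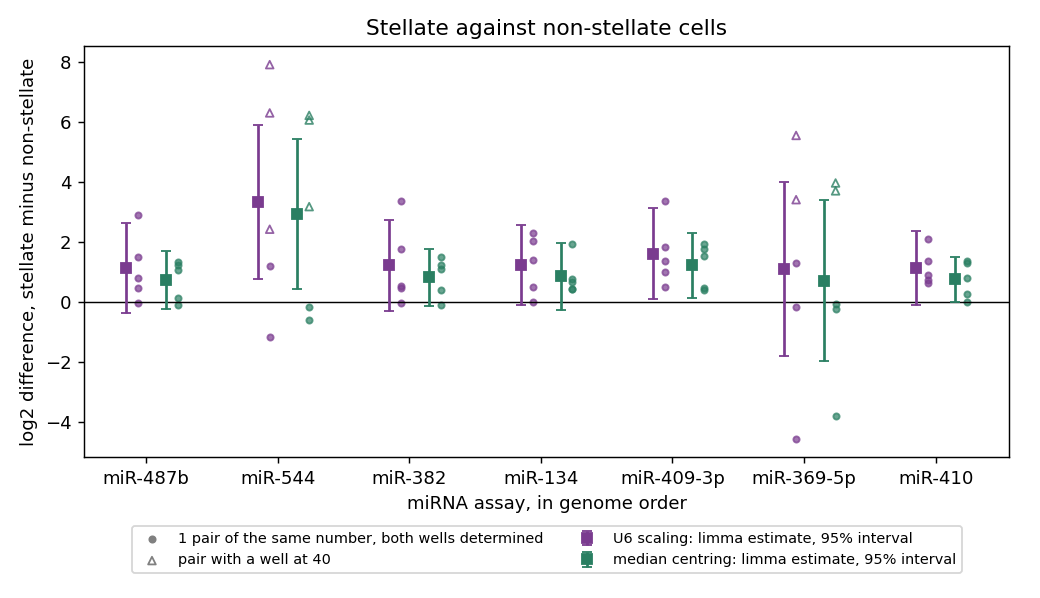
Log2 difference, stellate minus non-stellate (y), of the 7 miRNAs in genome order (x), scaled to U6 or centred on the median assay: squares with bars are limma estimates with 95% intervals, dots are pairs of the same number, and open triangles are pairs with a well at 40. Every estimate lies above 0, 0 of 7 passed after adjustment, and only miR-544 and miR-369-5p have pairs that rest on wells at 40.

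The card also read other arms of these hairpins. MiR-369-3p was undetermined in all 10 sorted samples and at Ct 26.9 in both tissue samples. MiR-409-5p was determined in 4 of 5 stellate samples (32.8 to 35.6) and in 1 of 5 non-stellate samples (35.1), against 24.9 and 24.6 in tissue 1 and 2. A rat-specific miR-409-5p assay was undetermined in all 10 sorted samples and at 29.6 and 28.5 in tissue. All 3 of these assays were thus determined in tissue and in at most 5 of 10 sorted samples.

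Along the imprinted locus the card held 51 assays by name, of which 34 were tested, 27 of them outside the 7. Of those 27, 0 passed between stellate and non-stellate cells, 26 lay above 0, and their median log2 difference was 0.97, against 163 of 222 and 0.46 for the card. It was 0.50 without replicate 3, and 0.42 with 23 of 27 above 0 without non-stellate 3 and 5. After median centring, 25 of 27 lay above 0 with a median of 0.57. The smallest limma p-values after U6 scaling were for miR-431 (3.46), miR-667 (1.31) and miR-329 (2.72 log2 units, adjusted p = 0.587 for each). The first took non-stellate 3 at 40 and the last non-stellate 3 and 5 at 40, and with undetermined wells left out the differences were 1.83 for miR-431 and 0.52 for miR-329. After median centring, miR-127, a maternally expressed miRNA upstream of the cluster, came first (0.66, adjusted p = 0.343), ahead of miR-431 and miR-323-3p.

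Day 23 tissue differed much more from the sorted cells than the sorted cells from each other. MiR-410 was at Ct 22.2 in both tissue samples, and in no sorted sample was it earlier than 29.7. MiR-544 was at 25.8 and 25.9 and miR-369-5p at 27.1 and 27.3, earlier than in any sorted sample. MiR-487b was at 22.7 and 22.6, miR-409-3p at 22.0 and 22.1 and miR-382 at 20.5 and 20.3, each also earlier than every sorted sample. MiR-134 was also earliest in tissue, at 24.4 and 24.5, but stellate 1 followed closely at 24.6. The card shifted the same way: median Ct of the 176 shared assays was 23.69 and 23.70 in tissue and 27.96 or later in sorted samples. How many assays of the card separated in this way was not counted.

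Scaled to U6, 6 of the 7 were higher in tissue in the limma fit of all 12 samples, and 0 were lower. This fit too treated sorted samples of the same number as independent, although the 10 came from 5 biological replicates. On the card 141 of 222 tested assays passed (63.5%), of which 138 (62.2%) were called higher and 3 (1.35%) lower, and the median assay was itself 3.02 log2 units higher, so 6 of 7 is read against a card that shifted as a whole. Relative to U6, miR-544 was 7.55 log2 units higher (SE 1.38), miR-410 6.87 (SE 0.64), miR-369-5p 6.82 (SE 1.56) and miR-487b 4.68 (SE 0.79), with limma adjusted p-values from 1.34e-05 to 0.00208. Smaller differences were found for miR-409-3p (3.09, SE 0.80, adjusted p = 0.00453) and miR-382 (2.59, SE 0.80, adjusted p = 0.0123). For miR-134 it was 1.02 (SE 0.70, limma adjusted p = 0.219). The fit took the undetermined non-stellate wells of miR-544 and miR-369-5p at the value written for no signal. With undetermined wells left out, or with Ct capped at 35, the highest of the 7 was 6.87, the value of miR-410. In both of these fits 6 of the 7 passed. The lead of miR-544 over miR-410 thus rested on wells without a signal. Without tissue 1, miR-409-3p (2.84) and miR-382 (2.50) did not pass, and without tissue 2, miR-382 (2.69) did not pass.

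Centred on the median assay, the 7 miRNAs parted in direction. MiR-410 (3.88, SE 0.38, adjusted p = 1.64e-05), miR-544 (4.56, SE 1.30, adjusted p = 0.0141), miR-369-5p (3.83, SE 1.40, adjusted p = 0.0420) and miR-487b (1.69, SE 0.50, adjusted p = 0.0167) were higher in tissue by limma. MiR-134 was lower, by a log2 difference of -1.97 (SE 0.57, limma adjusted p = 0.0154), although against non-stellate cells alone it did not pass (-1.55, limma adjusted p = 0.0578). MiR-409-3p (0.10, 95% interval -1.13 to 1.34) and miR-382 (-0.39, 95% interval -1.47 to 0.68) did not pass. The values for miR-544 and miR-369-5p again included undetermined wells at the value written for no signal. No median-centred fit left those wells out, so the place of miR-544 as the highest of the 7 is not settled. On this scale 109 of 222 assays passed (49.1%), of which 53 (23.9%) were called higher and 56 (25.2%) lower, against 4 and 1 of the 7, and the median difference was 1.69 for the 7 and 0.03 for all tested. The median-centred Ct of miR-134 was 0.69 and 0.77 in tissue, above all 5 stellate values (-3.54 to -1.08) and all 5 non-stellate values (-1.61 to -0.47), so that the groups did not overlap. The sign for miR-134, miR-382 and miR-409-3p depends on the scaling: miR-134 reversed under median centring, the global mean and Y1 as reference. MiR-410 stayed higher and called under every alternative run, between 3.37 and 7.63 log2 units.

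Age, sorting, the makeup of the cells, the RNA kit and the volumes used before amplification all differ between tissue and sorted samples and cannot be told apart here. Markers moved with the same contrast: both oligodendrocyte markers were determined in both tissue samples, with miR-219 at Ct 25.1 and 25.6, and the 4 vascular markers summed to 4.58 and 4.75 log2 units above the median assay, against 1.17 to 4.42 in sorted cells. All 6 blood and microglia markers were determined in both tissue samples, where miR-451 of red blood cells was at Ct 26.7 and 26.9 and miR-142-5p at 30.2 and 30.4, whereas both were undetermined in all 10 sorted samples. That list summed to 3.43 and 3.50 log2 units above the median assay in tissue and to 1.76 to 19.2 in sorted cells. The 5 neuronal markers summed to 8.59 and 8.65 in tissue, within the sorted range of 7.57 to 9.02. MiR-9 sets most of that sum, with a mean median-centred Ct of -8.36 in tissue, -7.79 in stellate and -8.59 in non-stellate samples. Each of the rest had its lowest mean in tissue. In the same order, these were -1.32, -0.33 and 0.24 for miR-124 and -4.28, -3.50 and -2.50 for miR-128a. They were -2.55, -0.86 and -0.59 for miR-129-3p and -5.21, -4.43 and -3.13 for miR-138. The part of these markers in the differences was not tested.

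**Figure D3:**
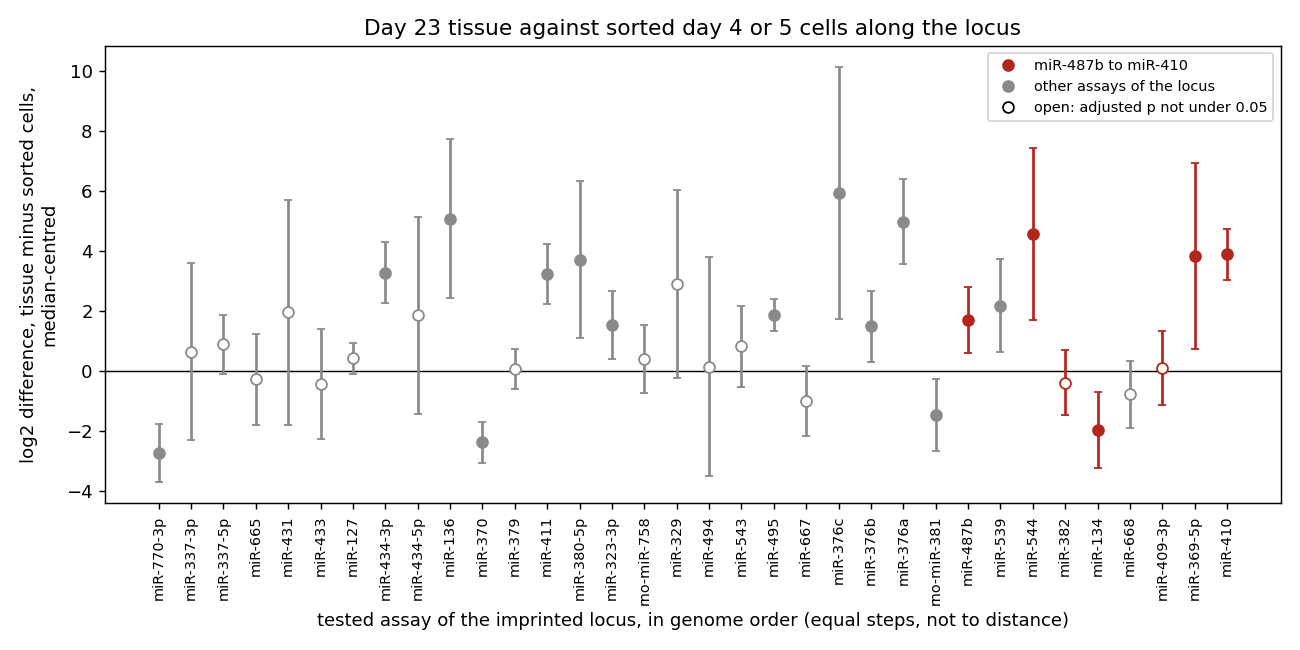
Log2 difference between day 23 tissue and sorted cells after median centring (y, limma estimate with 95% interval) for the 34 tested assays of the imprinted locus in genome order (x, equal steps). In red, the 7 miRNAs run from 4.56 for miR-544 to -1.97 for miR-134, and filled points have an adjusted p under 0.05. Undetermined wells entered at the value written for no signal, among them wells of miR-544 and miR-369-5p.

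Other miRNAs of the locus spread as widely. Of the 27, 22 were called higher and 0 lower with U6, with a median of 3.87, and 10 higher and 3 lower after median centring, with a median of 0.88. The 3 lower were miR-770-3p (-2.74), miR-370 (-2.38) and rno-miR-381 (-1.48), and those with the smallest limma p-values were miR-495 (1.86, adjusted p = 9.76e-05), miR-376a (4.97) and miR-370. By position, tissue differed from sorted cells by -0.39 and -1.97 for miR-382 and miR-134, with genes 289 bases apart, and by 3.83 and 3.88 for miR-369-5p and miR-410, with genes 225 bases apart. The closely spaced Mir409 and Mir369 gave 0.10 for miR-409-3p and 3.83 for miR-369-5p, so short distance did not go with like values in each case.

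Differences between wells of 1 sample need no reference RNA. The Ct of miR-410 exceeded that of miR-134 by 5.12, 3.08, 3.75, 3.02 and 3.37 cycles in stellate samples 1 to 5. In non-stellate samples 1 to 5 the excess was 4.46, 2.41, 3.57, 3.41 and 3.98 cycles. In tissue the order was turned, at -2.16 and -2.31 cycles. Stellate and non-stellate samples overlapped, apart from stellate 1 above and non-stellate 2 below the range of the other group, with a difference of means of 0.0992 cycles (exact two-sided permutation p = 0.857), and the tissue mean minus the sorted mean was -5.85 cycles (exact two-sided permutation p = 0.0303 over 66 splits, the smallest p this design allows). The pair was chosen after its values had been seen, which makes these p-values descriptive. The splits also treated sorted samples of the same number as independent. Against miR-134, miR-487b also turned, from 0.94 to 2.86 cycles later in sorted samples to 1.82 and 1.68 cycles earlier in tissue. MiR-409-3p was between 0.90 cycles earlier and 0.77 cycles later than miR-134 in sorted samples, and 2.42 and 2.35 cycles earlier in tissue. MiR-134 was 1.33 to 3.17 cycles later than miR-382 in sorted samples and 3.89 and 4.13 cycles later in tissue.

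**Figure D4:**
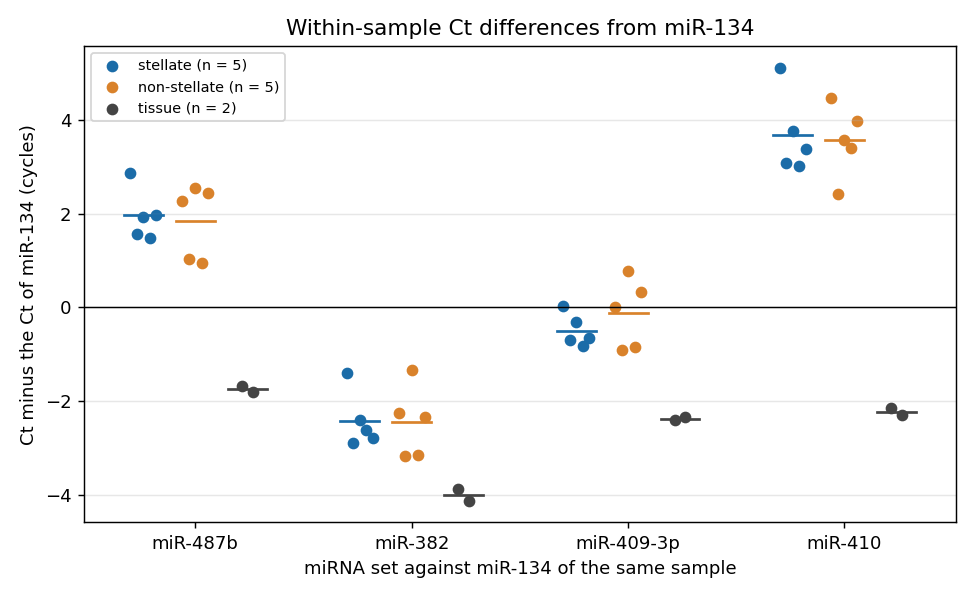
Ct of 4 miRNAs minus the Ct of miR-134 in the same sample (y, cycles; values below 0 are earlier than miR-134), with lines for group means. Stellate and non-stellate points overlap for all 4, and both tissue points lie below every sorted point.

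The 5 miRNAs determined in all samples were also set against the other 175 assays with a full row, by the root mean square difference of their median-centred, mean-subtracted Ct over 12 samples. MiR-487b was most like miR-323-3p (0.286 cycles), miR-382 and miR-409-3p were most like each other (0.346), miR-134 most like miR-667 (0.519) and miR-410 most like miR-434-3p (0.464). The median difference over all assays was 1.11 to 1.70 cycles. Of the 10 closest assays (the nearest 2 of each), 7 belonged to the locus, which made up 25 of the 176 assays (14.2%). The values share libraries and scaling, and carry no p-value.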

How the data were processed

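Groups came from sample titles, sources and fluorescence. The authors deposited raw Ct values (log2 scale, no normalization, undetermined wells at 40) and a normalized table that equals Ct minus the mean of the 4 U6 wells of the sample (largest difference 7.1e-15). The deposited tables of fold changes and limma results hold the authors' own comparisons and were not used. RNA was reverse transcribed and pre-amplified, Ct was read with default settings of the instrument's software, and sorted samples used adjusted volumes because of their low concentration.

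Assays undetermined in at most 3 of 10 sorted samples were tested (222; 153 were not). Limma 3.58.1 in R 4.3.3 (lmFit, eBayes, two-sided, Benjamini-Hochberg over 222 assays, threshold 0.05) compared stellate with non-stellate samples, without a block, since the study's methods name none, and tissue with the mean of both sorted groups over 12 samples. Undetermined wells entered as 40. Sequences were read with Python 3.11.15 and hairpins aligned with Biopython 1.88. The fits were run on simulated data of independent normal values. Those data held no wells set to 40 and no pairing of samples, so they do not test how the fits handle either. The 7 miRNAs, the locus list and the markers were chosen with earlier results of these data known. Named were all 7, the 3 locus assays with the smallest p-values per fit, and the 2 nearest assays of each miRNA. Others were named after their values were seen: the other arms, and the 3 locus assays called lower. Replicate numbers were read as pairs from the design text, and deviations of same-numbered samples correlated at 0.0743 to 0.331 (mean 0.187), against a mean of -0.0481 for different numbers. In all, 44 alternatives were run, 5 of them chosen after seeing the data.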

Additional observations from a re-analysis of the deposited data

Results flagged for a closer look

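In 4 of 42 groups of 5 samples (7 miRNAs, 2 sorted groups, 3 scales), 1 sample stood far from the other 4 by the gap to its neighbour over the group's range, where chance gives about 2.1. Median-centred miR-134 was -3.54 in stellate 1, against -1.25 to -1.08 in the other stellate samples, and -1.61 in non-stellate 1, against -0.76 to -0.47. Median-centred miR-409-3p was -3.52 in stellate 1, against -1.94 to -1.51. Raw miR-410 was at Ct 32.1 in stellate 3, against 29.7 to 30.2. Without replicate 1 and with median centring, a fit added after seeing the data, the log2 difference between stellate and non-stellate cells was 0.61 for miR-134, against 0.84 with it, and 1.07 for miR-409-3p, against 1.21. Without replicate 3 and with U6 scaling, it was 0.89 for miR-410, against 1.13.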

How the results depend on the processing

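Between stellate and non-stellate cells, limma called 0 of the 7 and 0 assays of the card under each of 21 alternatives, with 5 to 48 assays at an unadjusted p under 0.05. With the replicate block 26 of 222 assays were at an unadjusted p under 0.05 and 0 passed. With the block and median centring 48 were, 4 of the 7 among them, and the smallest adjusted p of the 7 was 0.110 (miR-409-3p). The block changed no call. Of 145 values of the 7, 141 kept direction and side, and miR-369-5p reversed in 4, to -0.067 without replicate 1 with median centring, -1.04 with undetermined wells missing, -0.89 with Ct capped at 35 and -0.014 without replicate 3, its range without 1 replicate number reaching 2.51 (without replicate 5). Without non-stellate 3 and 5 and with median centring, the differences of the 7 were 0.11 to 2.07.

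For tissue, 130 of 159 values kept direction and side, 15 no longer passed, 1 newly passed (miR-134 with U87, 1.78) and 13 reversed. MiR-134 was -1.97 with median centring, -1.65 with the global mean and -2.48 with Y1. It was -1.83 with median centring without non-stellate 3 and 5, and -2.39 and -1.55 with median centring against stellate or non-stellate cells alone, the last no longer passing. MiR-382 was -0.39, -0.081 and -0.91 with the same 3 scalings, -0.47 with median centring without non-stellate 3 and 5, and -0.80 with median centring against stellate cells alone. MiR-409-3p was -0.41 with Y1 and -0.50 with median centring against stellate cells alone. Assays called numbered 141, but 68 with Y1, 238 with no filter and 91 with median centring against stellate cells alone. Of the 7, 6 were called, but 3 with Y1 and 2 with median centring against stellate cells alone. Leaving out 1 replicate number gave 137 to 151 calls, and 1 tissue sample 97 and 119. The cause was not tested. Late wells limit miR-544 and miR-369-5p, since single wells near Ct 35 give no bound on how much lower an undetermined well is.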
